A study of Mus musculus with 16 samples.

Results

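Genes of NAD and NADP synthesis were followed in mouse heart RNA, chosen by gene name from the known enzymes of these routes. They were Nampt, Naprt, Nadsyn1, Nmnat1, Nmnat3, Nmrk1, Nmrk2, Nadk, Nadk2 and Nnt, and each was found as 1 row in both the count table and the FPKM table (fragments scaled by gene length and library total), making 10 of 24371 genes listed. Bulk RNA-seq had been made from 16 heart samples, 4 in each of 4 groups. Every group had received L-NAME, which blocks nitric oxide synthesis, and a diet rich in fat over 12 weeks, the 2-hit model of HFpEF, heart failure in which the ejection fraction is preserved. The groups were Gpr91fl/fl hearts without succinate, Gpr91fl/fl hearts with succinate, Myh6Cre Gpr91fl/fl hearts without succinate and Myh6Cre Gpr91fl/fl hearts with succinate, called below untreated floxed, succinate floxed, untreated Cre and succinate Cre. Gpr91 is the succinate receptor, listed in the tables as Sucnr1, and the Myh6 promoter drives Cre in cardiomyocytes of atria and ventricles, so other heart cells keep the floxed receptor gene. All 4 groups therefore shared the floxed allele and the HFpEF model. A heart without the model, and a heart with Cre but no floxed allele, were not analysed here. Succinate dose, age, sex and strain are not given in the sources used here, and nothing there says that libraries came from separate animals, so the p-values below measure the spread between these samples.

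NAD is a carrier of electrons and also a substrate that sirtuins, PARP enzymes and CD38 break down, so cells rebuild it continually. Mammalian cells do so from nicotinamide (through Nampt), from nicotinic acid (through Naprt and Nadsyn1), from nicotinamide riboside (through the kinases Nmrk1 and Nmrk2) or from tryptophan, and the Nmnat enzymes complete the dinucleotide. NAD kinases then phosphorylate it to NADP, and Nnt in the inner mitochondrial membrane passes electrons from NADH to NADP. In the heart, salvage from nicotinamide is the leading route, and Nmrk2 is known as a muscle enzyme that rises in stressed or failing hearts.

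The libraries held 27835235 to 34700996 counts assigned to genes, and 14607 genes passed the filter on low counts, all 10 members among them. Cardiomyocyte markers were abundant in every library, all 7 of them, with a summed level of 41656 to 57897 CPM (counts over the library total, scaled to a common size without further factors), while white adipocyte markers summed to at most 1.97 CPM and liver markers to at most 0.751 CPM. Atrial markers, summed over 6 genes, ran from 86.4 to 1775.1 CPM. Sucnr1 had 0 to 7 counts in the 8 floxed hearts and 2 to 21 in the 8 Cre hearts. The targeted gene was thus not lower in libraries labelled Myh6Cre, and at so few counts from all heart cells the deletion could not be checked.

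The promoters of the pair of nicotinamide riboside kinases are shown because these genes encode enzymes of the same reaction yet only Nmrk2 passed a test for a change with succinate. Both windows run from 250 bases before to 50 bases after the annotated start, 5′ to 3′ on the gene's own strand, from RefSeq on GRCm38.p6. Nmrk2 lies on the minus strand at chr10:81201988-81202287, and Nmrk1 on the plus strand at chr19:18631766-18632065. Capitals mark matches to any of 5 motifs searched on both strands.
Nmrk2: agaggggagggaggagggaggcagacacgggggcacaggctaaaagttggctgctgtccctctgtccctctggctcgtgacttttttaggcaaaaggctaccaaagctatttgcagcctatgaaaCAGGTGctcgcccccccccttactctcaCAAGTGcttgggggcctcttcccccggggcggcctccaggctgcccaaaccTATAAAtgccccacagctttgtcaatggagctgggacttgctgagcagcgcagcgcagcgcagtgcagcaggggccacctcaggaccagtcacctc
Nmrk1: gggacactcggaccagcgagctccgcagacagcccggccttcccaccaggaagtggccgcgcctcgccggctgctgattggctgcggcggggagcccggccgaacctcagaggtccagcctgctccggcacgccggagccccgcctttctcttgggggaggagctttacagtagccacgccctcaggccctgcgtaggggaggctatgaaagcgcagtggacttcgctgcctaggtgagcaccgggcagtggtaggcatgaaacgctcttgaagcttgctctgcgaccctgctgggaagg
The Nmrk2 window held 2 E-box matches (CANNTG), starting 125 and 97 bases before the start, and 1 TATA match (TATAAA) starting 46 bases before it. The Nmrk1 window held none of these letters. Neither window matched the nuclear receptor sequence AGGTCA, the MCAT sequence CATTCC or the AP-1 sequence TGANTCA. Of 32851 mouse promoter windows of the same length, 72.3% held an E-box match, 13.6% TATAAA, 16.3% AGGTCA, 14.7% CATTCC and 7.81% TGANTCA. These matches describe letters only. A promoter entry was present for 7 of the 10 members: Nampt, Nadsyn1, Nmnat1, Nmnat3, Nmrk1, Nmrk2 and Nadk.

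The enzymes differed widely in level. Per length, in the deposited FPKM over all 16 libraries, the transhydrogenase Nnt was highest at 118 ± 15.2 (SD, n = 16), with a range of 91.1 to 143. Some laboratory mice, among them C57BL/6J, carry a deletion within Nnt, and gene-level counts do not tell whether these transcripts were whole. Nampt, the rate-limiting enzyme of nicotinamide salvage, followed at 45.1 ± 5.38 FPKM. Together they set most of the summed level of the members, which was 183 to 252 FPKM: Nnt made up 44.9 to 57.8% of it and Nampt 16.9 to 23.6%. The NAD kinases came next, at 13.5 ± 2.90 FPKM for the mitochondrial Nadk2 and 13.2 ± 1.43 FPKM for the cytosolic Nadk. Nmrk2 averaged 9.56 ± 11.4 FPKM, an SD above its mean. The nuclear adenylyltransferase Nmnat1 stood at 7.70 ± 0.804 FPKM, the nicotinic acid enzyme Naprt at 6.29 ± 1.17 FPKM and the mitochondrial adenylyltransferase Nmnat3 at 5.24 ± 0.555 FPKM. Lowest were Nmrk1 at 1.76 ± 0.314 FPKM and Nadsyn1, which amidates nicotinic acid adenine dinucleotide to NAD, at 1.47 ± 0.308 FPKM.

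Along this order, Nnt exceeded Nampt, Nampt exceeded Nadk2, and Nmnat3 exceeded Nmrk1 in 16 of 16 libraries without overlap of their ranges. The other neighbours overlapped. Nadk2 was the higher NAD kinase in 9 of 16 libraries, and Nmrk1 exceeded Nadsyn1 in 10 of 16. Nmrk2 was the exception in spread: its FPKM ran from 1.33 to 37.7 with a median of 3.52, a 28.4-fold range, and its share of the summed level ran from 0.627 to 17.0%. For the other 9 members, highest over lowest was 1.39 (Nmnat1) to 2.17 (Nadk2). The plot of member levels shows this as 9 narrow columns beside 1 wide one.

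**Figure D1:**
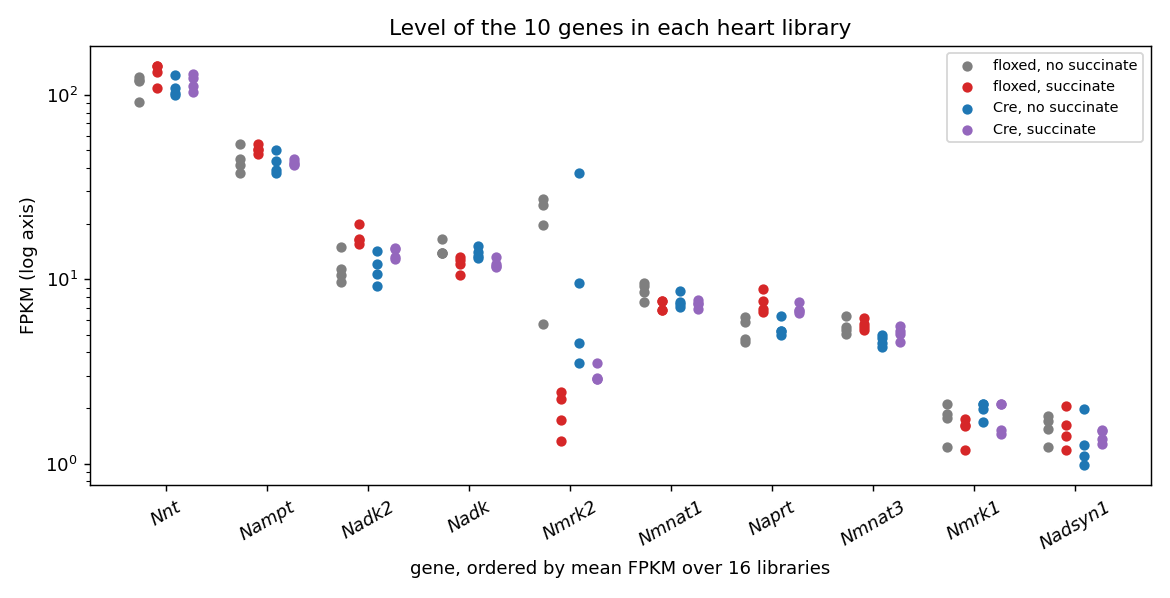
Deposited FPKM of the 10 members on a log axis, 1 point for each of 16 libraries, coloured by group. Nnt is highest (91.1 to 143 FPKM), and Nmrk2 is the member with the widest spread (1.33 to 37.7 FPKM).

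Succinate in floxed hearts was the comparison that asks what succinate does where cardiomyocytes keep an intact receptor gene. Naprt and Nadk2 rose and Nmrk2 fell. The remaining 7 of 10 members did not pass the quasi-likelihood test of edgeR at a Benjamini-Hochberg adjusted p of 0.05. Over all tested genes, 13.1% passed in this comparison, 7.48% higher and 5.64% lower. With edgeR, 7 members and 28.4% of all tested genes had an unadjusted p under 0.05. The members were chosen with earlier results of these data known, so this count is a description. The median log2 change of the 10 members was 0.06 and that of all genes 0.00.

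Nmrk2, the muscle kinase that makes nicotinamide mononucleotide from nicotinamide riboside, had 46.6, 50.1, 36.0 and 10.5 CPM in the 4 untreated floxed hearts. In the 4 succinate floxed hearts it had 3.17, 4.12, 4.50 and 2.44 CPM. Every treated heart lay below every untreated one, and 1 untreated heart lay well under the other 3. The mean went from 35.8 ± 17.9 CPM (SD, n = 4) to 3.56 ± 0.932 CPM. Here and below, SE and intervals of log2 changes were derived from the test statistic. The fitted log2 change was −3.27 ± 0.69 (SE, 95% interval −4.77 to −1.77, edgeR adjusted p = 0.00961). Leaving out each of the 8 libraries in turn gave −3.58 to −3.09, and the call held in all 8. Macrophage markers also moved in this comparison, from a summed 192 to 286 CPM to 114 to 178 CPM, with 3 of 6 lower. Atrial markers went from 197 to 494 CPM to 86.4 to 111 CPM, without overlap, with 1 of 3 tested lower, and cardiomyocyte markers from 44319 to 50907 CPM to 50872 to 57897 CPM, with 2 of 7 higher. Their part in the member changes was not tested. In bulk heart RNA, fewer cells of a type and less RNA per cell cannot be told apart.

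Naprt, which starts NAD synthesis from nicotinic acid, had 8.95, 11.1, 8.60 and 11.8 CPM in untreated floxed hearts. With succinate it had 13.0, 16.8, 12.5 and 14.3 CPM. All 4 treated hearts were above all 4 untreated ones, though the gap between the groups was narrow. The log2 change was 0.53 ± 0.12 (SE, 1.44-fold, 95% interval 0.29 to 0.77, edgeR adjusted p = 0.00678), and it was 0.43 to 0.62 without each library in turn. The next enzyme of this route, Nadsyn1, had 4.25, 4.70, 5.01 and 3.38 CPM untreated and 5.65, 4.46, 3.86 and 3.27 CPM with succinate. Its groups overlapped almost fully, and its log2 difference was 0.05 ± 0.20 (95% interval −0.37 to 0.46).

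Nadk2, the mitochondrial NAD kinase, had 42.6, 60.4, 46.4 and 39.1 CPM untreated and 80.9, 67.4, 66.6 and 63.3 CPM with succinate. Again the groups did not overlap, and the first treated heart was the highest. The log2 change was 0.62 ± 0.14 (SE, 1.53-fold, 95% interval 0.32 to 0.91, edgeR adjusted p = 0.00962). The cytosolic kinase Nadk lay on the other side, with 46.4, 46.5, 46.5 and 55.6 CPM untreated and 35.5, 42.5, 40.7 and 44.3 CPM with succinate. These ranges did not overlap either, but the log2 difference of −0.21 ± 0.08 did not pass (edgeR adjusted p = 0.109). Without succinate floxed replicate 4 it was −0.27 with an adjusted p of 0.0449. Ranges that did not overlap were thus seen for 4 of 10 members, against 17.5% of all tested genes, 7.32% higher and 10.1% lower. With TMM-scaled CPM, added after the data were seen, they were seen for 3, since the ranges of Nadk then overlapped, against 17.8% of all genes.

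The other members differed less. Nnt had 435, 454, 436 and 332 CPM untreated and 519, 484, 522 and 398 CPM with succinate, a log2 difference of 0.27 ± 0.12 (edgeR adjusted p = 0.156). Each group had 1 low heart, and the lowest treated heart was below 3 of 4 untreated ones. For Nampt the values were 188, 204, 244 and 171 CPM untreated and 247, 217, 231 and 227 CPM with succinate, a log2 difference of 0.24 ± 0.11 (adjusted p = 0.157). One untreated heart was almost as high as the highest treated one. Nmnat1 had 22.4, 20.7, 23.2 and 18.5 CPM untreated and 18.6, 18.7, 16.7 and 16.7 CPM with succinate, a log2 difference of −0.21 ± 0.08 (adjusted p = 0.0926). It passed with DESeq2 (−0.22, adjusted p = 0.0494) and with limma's voom with sample quality weights, called voom below (−0.26, adjusted p = 0.0199). Nmnat3 differed by 0.08 ± 0.10 (95% interval −0.13 to 0.29) and Nmrk1 by −0.13 ± 0.20 (95% interval −0.55 to 0.28), both on the log2 scale.

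**Figure D2:**
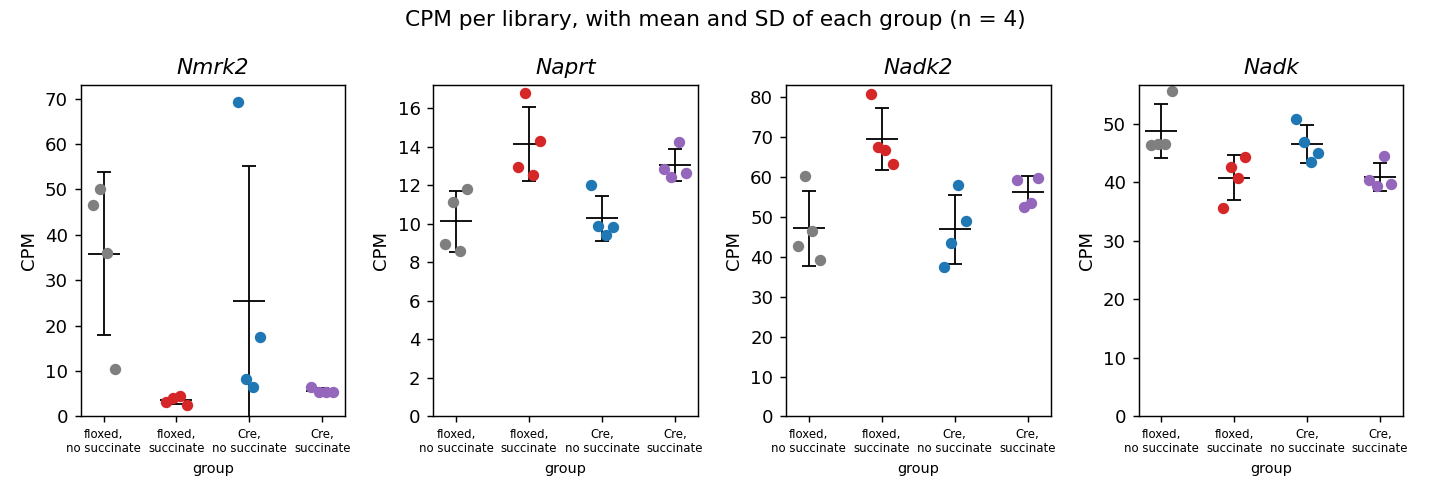
CPM of Nmrk2, Naprt, Nadk2 and Nadk in each of the 16 hearts, by group, with the mean and SD of 4 hearts. Nmrk2 is low in both succinate groups and the first untreated Cre heart is its highest value at 69.3 CPM (its SD bar reaches below 0 and is drawn to the axis).

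Succinate in Cre hearts was the same comparison where the receptor allele is floxed and Cre is expressed in cardiomyocytes. With edgeR, 0 of 10 members passed. An unadjusted p under 0.05 was found for 3 members and for 14.1% of all tested genes. Of all tested genes, 0.917% passed, 0.602% higher and 0.315% lower. The count of members was 0 with voom and 1 with DESeq2, namely Nmrk2.

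Nmrk2 had 69.3, 8.31, 6.47 and 17.5 CPM in untreated Cre hearts and 6.48, 5.38, 5.27 and 5.27 CPM with succinate. The untreated hearts spread 10.7-fold, the first being the highest of all 16 libraries, and the third was level with the highest treated heart. The log2 difference was −2.10 ± 0.66 (SE, 95% interval −3.51 to −0.68, edgeR adjusted p = 0.153, DESeq2 adjusted p = 0.0357). Without the first untreated Cre heart it was −0.94 (edgeR adjusted p = 0.520). That heart was an extreme of its group for all 10 members, the highest for Nmrk2, Naprt, Nadk, Nadsyn1 and Nmnat1 and the lowest for Nnt, Nampt, Nadk2, Nmnat3 and Nmrk1, though with TMM-scaled CPM not for Nadk. Atrial markers, summed, were 378 to 1775.1 CPM in untreated and 470 to 956 CPM in succinate Cre hearts, against 197 to 494 CPM and 86.4 to 111 CPM in the floxed groups, and their part in the Nmrk2 values was not tested.

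Naprt had 12.0, 9.87, 9.41 and 9.83 CPM in untreated Cre hearts and 12.9, 12.4, 14.2 and 12.7 CPM with succinate. On this scale it was the only member of the 10 without overlap here (with TMM-scaled CPM, Nadk had none either), against 7.48% of all tested genes (3.93% higher and 3.55% lower), but its log2 difference of 0.38 ± 0.12 (95% interval 0.14 to 0.63) did not pass (edgeR adjusted p = 0.117). For Nadk2 the values were 37.3, 43.3, 57.9 and 48.8 CPM and then 59.4, 52.5, 53.4 and 59.8 CPM. The third untreated heart lay inside the treated range, and the log2 difference was 0.30 ± 0.14 (adjusted p = 0.354). Nadk had 50.8, 46.9, 43.5 and 44.9 CPM and then 40.3, 39.3, 44.5 and 39.7 CPM, a log2 difference of −0.15 ± 0.08 (adjusted p = 0.461). The other 6 members had log2 differences between −0.10 (Nmrk1) and 0.17 (Nmnat3), with Nampt at 0.05 ± 0.11 (95% interval −0.18 to 0.28) and Nnt at 0.13 ± 0.12.

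Averaged over both genotypes, 4 of 10 members passed, against 19% of all tested genes (10.6% higher and 8.45% lower). With edgeR, 5 members and 32.9% of all tested genes had an unadjusted p under 0.05. This average uses all 16 libraries and shares them with the 2 comparisons above. Naprt rose by a log2 change of 0.46 ± 0.08 (edgeR adjusted p = 0.00108) and Nadk2 by 0.46 ± 0.10 (adjusted p = 0.00432), while Nmrk2 fell by 2.68 ± 0.48 on the log2 scale (adjusted p = 0.00216). These 3 calls held without each of the 16 libraries in turn. Nadk fell too, with a log2 change of −0.18 ± 0.06 (0.884-fold, adjusted p = 0.0444), but its call held in only 8 of 16 such fits. Nadk also missed the threshold with no filter on low counts (adjusted p = 0.0827). Nnt at 0.20 ± 0.09 and Nampt at 0.15 ± 0.08 did not pass (adjusted p = 0.114 and 0.208).

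The difference between the 2 succinate effects was tested as an interaction, which asks whether the response depends on genotype. With edgeR 0 of 10 members passed, as did 0% of all tested genes. An unadjusted p under 0.05 was found for 0 members and 4.85% of all genes. DESeq2 and voom gave 0 members too. For Nmrk2 the interaction was 1.18 ± 0.93 on the log2 scale (95% interval −0.82 to 3.17), for Nadk2 −0.32 ± 0.20 (−0.74 to 0.10) and for Naprt −0.14 ± 0.16 (−0.49 to 0.20). All 3 intervals held 0 and also reached most or all of the size of the change in floxed hearts, so the calls made in floxed hearts alone do not show a difference between genotypes. Without the first untreated Cre heart, the Nmrk2 interaction was 2.34. The plot of succinate effects sets both genotypes side by side.

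**Figure D3:**
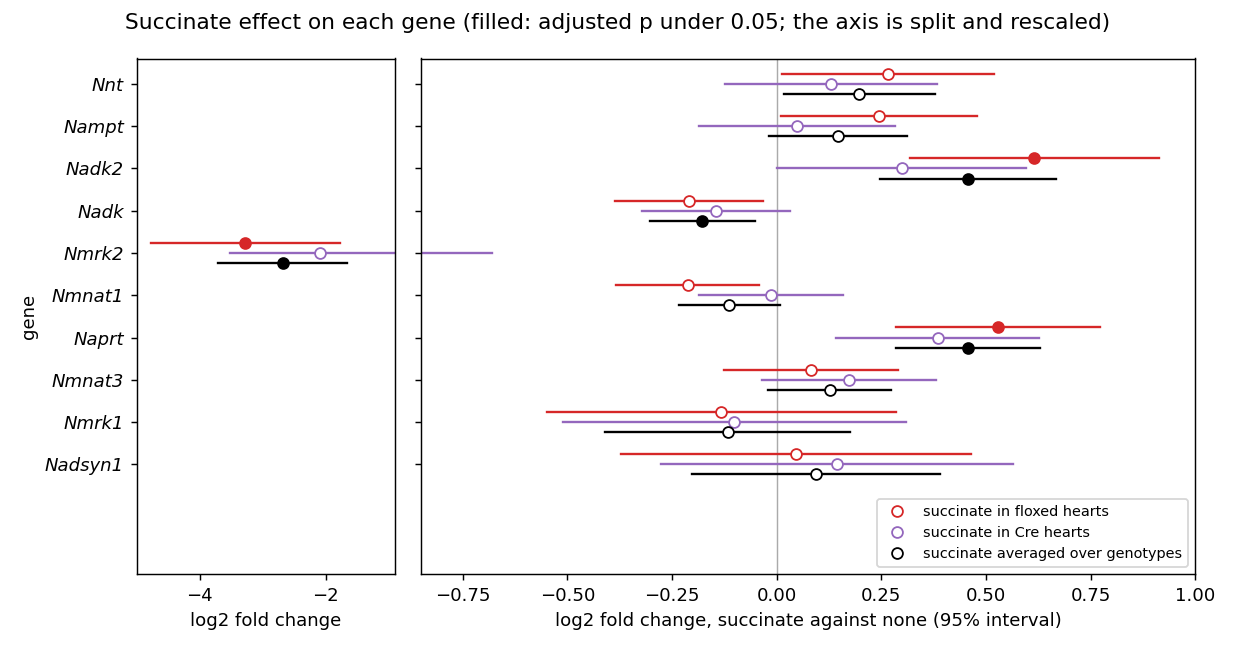
Log2 change with succinate for the 10 members in floxed hearts, in Cre hearts and averaged over genotypes, with 95% intervals. The axis is split because Nmrk2 lies far below the rest. Filled points passed the test at an adjusted p of 0.05. Nmrk2, Naprt and Nadk2 did so in floxed hearts and in the average, Nadk in the average only, and none in Cre hearts.

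Genotype was compared within each treatment, asking whether Cre in a floxed background changed the same enzymes. Without succinate, edgeR called 0 of 10 members, as did DESeq2 and voom. With edgeR, 2 members and 8.75% of all tested genes had an unadjusted p under 0.05. Of all tested genes 0.11% passed, 0.089% higher and 0.0205% lower. Nmnat3 had 17.1, 20.2, 17.6 and 16.3 CPM in untreated floxed hearts and 13.7, 14.5, 15.5 and 16.1 CPM in untreated Cre hearts, a log2 difference of −0.27 ± 0.10 (adjusted p = 0.415). It was the only member of the 10 whose ranges did not overlap, against 4.58% of all genes, 3.15% higher and 1.43% lower. Nmnat1, the nuclear enzyme of the same step, differed by −0.21 ± 0.08 (adjusted p = 0.459). Nmrk2 differed by −0.56 ± 0.61 (95% interval −1.87 to 0.75), and by −1.73 without the first untreated Cre heart.

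With succinate, edgeR, DESeq2 and voom again called 0 of 10 members. With edgeR, 2 members and 11.1% of all tested genes had an unadjusted p under 0.05. Of all tested genes 0.691% passed, 0.548% higher and 0.144% lower. Nampt had 247, 217, 231 and 227 CPM in succinate floxed hearts and 192, 189, 196 and 202 CPM in succinate Cre hearts, a log2 difference of −0.28 ± 0.11 (edgeR adjusted p = 0.340). All 4 Cre hearts were below all 4 floxed hearts. For Nadk2 the log2 difference was −0.34 ± 0.14 (adjusted p = 0.365). Nmrk2 lay the other way, at 2.44 to 4.50 CPM in floxed and 5.27 to 6.48 CPM in Cre hearts, a log2 difference of 0.62 ± 0.70 (adjusted p = 0.830). This SE comes from a spread fitted over all 4 groups, not from these hearts alone. The SD of Nmrk2 was 26.2% (floxed) and 10.5% (Cre) of its mean with succinate, and 50.1% and 117% without. These 3 members had ranges that did not overlap, against 7.02% of all genes, 4.63% higher and 2.4% lower. Skeletal muscle markers were called higher in Cre hearts for 2 of 6 tested genes without succinate and for 4 of 6 with it, and their part in the genotype values was not tested.

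The balance between paired enzymes was described as a ratio of FPKM, chosen after the values were seen and given without a test. Nmrk2 over Nmrk1 was 14.3, 22.2, 10.5 and 2.69 in untreated floxed hearts and 1.06, 1.40, 1.41 and 1.12 in succinate floxed hearts. In untreated Cre hearts it was 22.3, 2.16, 1.79 and 4.50, and with succinate 1.67, 2.02, 1.36 and 1.89. The muscle kinase thus exceeded the widely expressed one in all 16 libraries, by little in both succinate groups and by over 10-fold in 4 of 8 untreated hearts.

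For the NAD kinases, mitochondrial over cytosolic, the ratio was 0.759, 1.07, 0.824 and 0.581 in untreated floxed hearts and 1.88, 1.31, 1.35 and 1.18 in succinate floxed hearts. It was 0.607, 0.764, 1.10 and 0.898 in untreated Cre hearts and 1.22, 1.10, 0.993 and 1.25 in succinate Cre hearts. Group means were 0.809 ± 0.204, 1.43 ± 0.309, 0.843 ± 0.209 and 1.14 ± 0.116 (SD, n = 4 each). All 4 succinate floxed hearts had more Nadk2 than Nadk per length, and the 2 floxed groups did not overlap, whereas the Cre groups did.

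**Figure D4:**
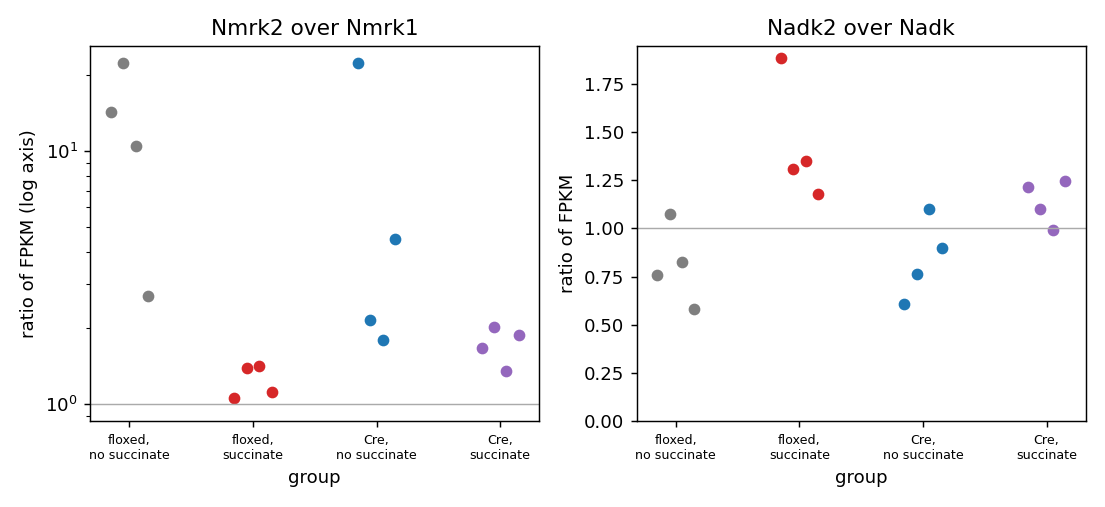
Ratio of FPKM in each heart, Nmrk2 over Nmrk1 (log axis) and Nadk2 over Nadk, by group. The Nmrk2 to Nmrk1 ratio is 1.06 to 2.02 in succinate hearts and up to 22.3 in untreated hearts, and the Nadk2 to Nadk ratio is highest at 1.88 in a succinate floxed heart.

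Members varied with one another across the 16 libraries, which share the succinate effect, so each Pearson r of log2 CPM is given also after subtraction of the 4 group means, as a description. The highest pair was Nadk2 with Nnt, 2 mitochondrial enzymes of NADP metabolism, at r = 0.859 (0.786 after subtraction). Nampt with Nadk2 had r = 0.752 (0.601). The most negative were Naprt with Nmrk2 at −0.716, which shrank to −0.0729 after subtraction, and Nadk with Nnt at −0.714, which stayed at −0.801. Nadk and Nadk2 had r = −0.710 (−0.639). The genes of a library share its depth and cell make-up, whose part in these values was not tested.

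The genes most like each moved member were taken as the 5 with the highest r among 11158 tested genes. For Nmrk2 these were Calr at 0.943 (0.815 after subtraction of group means), B4galt5 at 0.936 (0.887), Mogs at 0.935 (0.823), Myh7 at 0.922 (0.776) and Pdia6 at 0.921 (0.753). Calr is a calcium-binding chaperone of the endoplasmic reticulum, Mogs trims glycans there, Pdia6 is a disulfide isomerase, B4galt5 a galactosyltransferase and Myh7 the slow myosin heavy chain that rises in stressed rodent hearts. With group means taken out, r was at least 0.753 for all 5, which were picked for a high r over these same libraries. Within groups, Nmrk2 spread most in untreated Cre hearts (log2 CPM 2.70 to 5.99, the first highest). Untreated floxed hearts came next (3.42 to 5.61, the fourth lowest). The part of these single hearts in r was not tested. For Nadk2 they were Oplah at 0.972 (0.937), Patz1 at 0.950 (0.861), Phkg1 at 0.949 (0.878), Pfkm at 0.947 (0.922) and Hadha at 0.943 (0.904). Oplah opens 5-oxoproline in the glutathione cycle, Pfkm is muscle phosphofructokinase, Phkg1 a catalytic subunit of muscle phosphorylase kinase, Hadha a subunit of the mitochondrial trifunctional protein of fatty acid oxidation and Patz1 a zinc finger factor. For Naprt they were Tsfm at 0.876 (0.494), Wnt5b at 0.875 (0.596), Tbc1d17 at 0.870 (0.364), Zscan12 at 0.867 (0.577) and Nop9 at 0.863 (0.851). Among these, Tsfm is a mitochondrial translation elongation factor and Wnt5b a secreted signalling ligand.

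**Figure D5:**
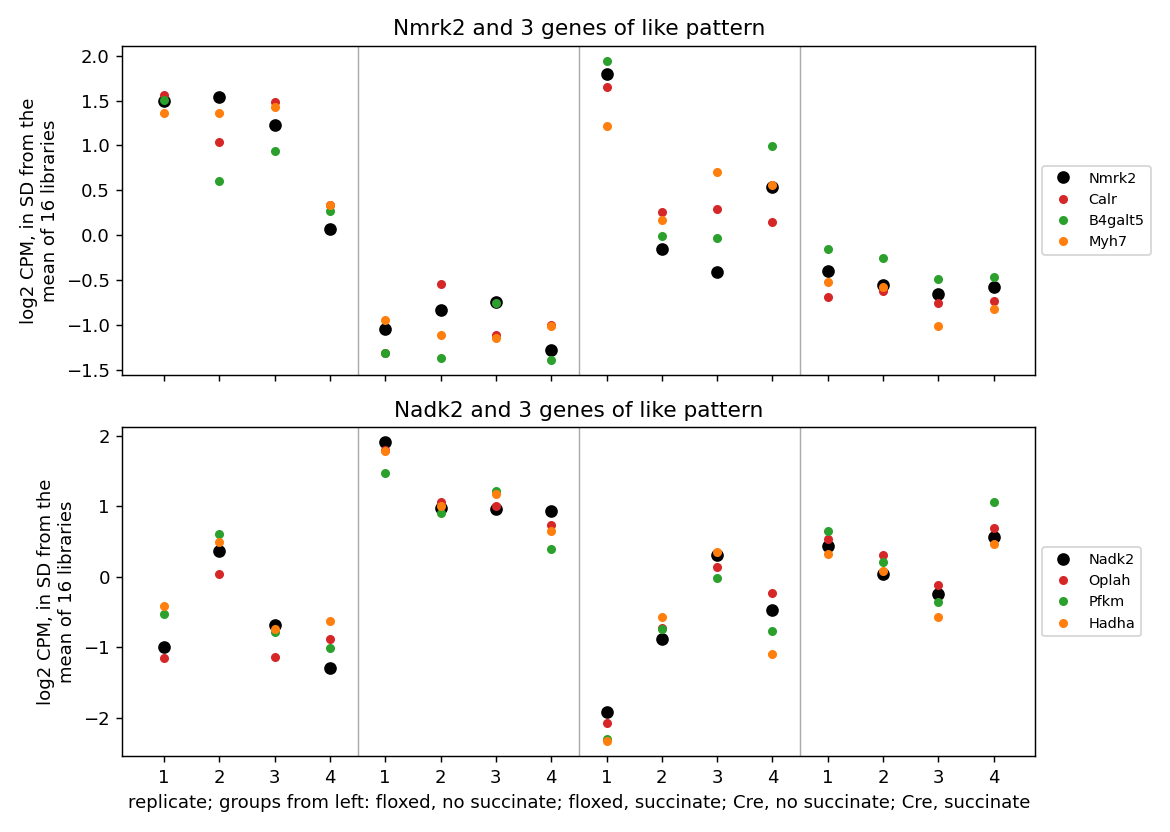
Log2 CPM of Nmrk2 with Calr, B4galt5 and Myh7, and of Nadk2 with Oplah, Pfkm and Hadha, each in SD from its mean over the 16 libraries. The points run close together (r of 0.922 to 0.943 with Nmrk2, 0.943 to 0.972 with Nadk2).

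The enzymes around the members were read from 5 lists, with edgeR's calls unless another tool is named. The shares over all tested genes to set beside them are 7.48% higher and 5.64% lower in floxed hearts, 0.602% and 0.315% in Cre hearts, and 10.6% and 8.45% in the average. Of the NADH shuttles and lactate dehydrogenases, 3 of 12 rose in floxed hearts with succinate and 0 fell, all 12 estimates were positive, and their median log2 change was 0.25, beside 0.00 over all genes. Got1, the cytosolic aspartate aminotransferase of the malate-aspartate shuttle, went from 648 ± 20.4 to 878 ± 60.8 CPM (SD, n = 4), a log2 change of 0.49 ± 0.09 (edgeR adjusted p = 0.00209). The mitochondrial aspartate-glutamate carriers Slc25a13 and Slc25a12 changed by 0.43 ± 0.10 (adjusted p = 0.0122) and 0.35 ± 0.10 (adjusted p = 0.0254). The Slc25a12 call held in only 2 of 8 fits without 1 library, and Slc25a13 missed the threshold on the log2(FPKM + 1) scale. Ldhb, the heart-type lactate dehydrogenase subunit, did not pass in floxed hearts with edgeR (0.33 ± 0.11, adjusted p = 0.0561). It passed in 0 of 8 fits without 1 library and in 4 of 11 other settings. These were DESeq2 (adjusted p = 0.0260), voom (0.0110), edgeR from the 2 groups alone (0.0364) and edgeR with the replicate block (0.0415). In Cre hearts 1 of 12 rose, again Got1, from 599 ± 42.6 to 811 ± 32.1 CPM with a log2 change of 0.48 ± 0.09 (adjusted p = 0.0173). Averaged over genotypes 8 of 12 rose, against 10.6% of all genes, among them Ldhb at 0.35 ± 0.08.

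Of 14 NADPH-producing enzymes, 1 rose and 1 fell in floxed hearts, against 7.48% and 5.64% of all genes. Glud1, glutamate dehydrogenase, was called higher there by DESeq2 (adjusted p = 0.0473) and by voom (0.0362), not by edgeR. Idh1, the cytosolic NADP-dependent isocitrate dehydrogenase, went from 39.4 ± 4.20 to 66.9 ± 6.32 CPM, a log2 change of 0.82 ± 0.11 (edgeR adjusted p = 0.000159). In Cre hearts it also rose, from 44.2 ± 4.69 to 61.2 ± 5.99 CPM, with 0.51 ± 0.10 (adjusted p = 0.0278). G6pdx, the entry enzyme of the pentose phosphate pathway, fell in floxed hearts from 11.3 ± 0.913 to 8.16 ± 0.748 CPM, a log2 change of −0.42 ± 0.11 (adjusted p = 0.0183), and missed the threshold in 2 of 8 fits without 1 library. Averaged over genotypes 3 rose and 1 fell: Glud1 at 0.20 ± 0.05 and Mthfd1, a cytosolic folate enzyme, at 0.24 ± 0.08 joined Idh1, although Mthfd1 held in only 6 of 16 fits without 1 library.

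Of 9 genes of synthesis from tryptophan, 3 passed the filter on low counts, and edgeR called 0 in any comparison. The 6 others had few counts, with at most 8 in any library for Haao and 7 for Qprt, the enzyme that joins this route to NAD. Ido1, which oxidises tryptophan, differed in floxed hearts by −1.41 ± 0.49 on the log2 scale at under 1 CPM and did not pass with edgeR (adjusted p = 0.0664). It was called lower by DESeq2 (−1.43, adjusted p = 0.0380), also in the average (−0.98, adjusted p = 0.0360), and by edgeR without the first untreated floxed heart (adjusted p = 0.0319). Of 9 tested genes for transport of NAD and its precursors and for clearance of nicotinamide, 2 rose in floxed hearts. Nudt12, a hydrolase that cleaves NADH, went from 10.1 ± 1.01 to 16.2 ± 1.74 CPM, a log2 change of 0.73 ± 0.10 (adjusted p = 0.000326). Aox1, an aldehyde oxidase that acts on methylated nicotinamide, changed by 0.69 ± 0.17 (adjusted p = 0.0124) and missed the threshold without the first succinate floxed heart and on the log2(FPKM + 1) scale. In Cre hearts 0 of these 9 passed.

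Among 12 NAD-consuming enzymes, edgeR called 1 lower and 0 higher in floxed hearts, and 0 in Cre hearts. With voom, Sirt5 (0.29, adjusted p = 0.0280) and Sirt3 (0.34, adjusted p = 0.0218) were called higher in floxed hearts. The gene called lower by edgeR was Bst1, a cell-surface ADP-ribosyl cyclase also made by myeloid cells. It went from 1.21 ± 0.374 to 0.456 ± 0.105 CPM, with a log2 change of −1.35 ± 0.30 (edgeR adjusted p = 0.00797). Macrophage markers were lower too, as given above, and their part in the Bst1 change was not tested. Averaged over genotypes 3 rose, the mitochondrial sirtuins Sirt5 at 0.28 ± 0.07, Sirt3 at 0.29 ± 0.07 and Sirt4 at 0.24 ± 0.08. Of these, Sirt4 held in only 4 of 16 fits without 1 library. Bst1 fell in the average at −0.71 ± 0.21, which held in 14 of 16. In Cre hearts alone Bst1 differed by −0.07 ± 0.28 (edgeR adjusted p = 0.944), and its interaction of 1.28 ± 0.41 did not pass (edgeR adjusted p = 0.970).

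Between genotypes, 0 genes of the 5 lists passed without succinate and 0 in the interaction. With succinate, 2 of the 14 NADPH-producing enzymes passed, against 0.691% of all tested genes (0.548% higher and 0.144% lower). These 2 are named here after their values were seen. Mthfd2, a mitochondrial folate enzyme, was higher in succinate Cre than in succinate floxed hearts, with a log2 change of 1.61 ± 0.23 (edgeR adjusted p = 0.00195). Me3, the mitochondrial NADP-dependent malic enzyme, was lower, at −0.50 ± 0.09 (adjusted p = 0.0112). Without succinate both differences had the same sign, 1.06 ± 0.22 for Mthfd2 (edgeR adjusted p = 0.102) and −0.40 ± 0.09 for Me3 (0.133). Their interactions were 0.55 ± 0.32 (edgeR adjusted p = 0.970) and −0.095 ± 0.128 (0.973). The 2 calls therefore do not show a genotype difference that depends on succinate. Alternatives were not run for these 2 genes.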

How the data were processed

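The authors deposited a table of read counts per gene and a table of FPKM per gene for 16 mouse heart libraries. The tools named in the submitters' processing notes are DESeq2, HTSeq, HISAT2, fastp and R 3.2.0, and the build GRCm39. Aligner settings, strand setting and annotation release are not given in the sources used here. The deposited FPKM were the counts divided by library total and 1 length per gene (largest relative spread 1.15e-13), so both tables hold the same reads. Without the strand setting, it is not known whether reads of a gene and of an overlapping or antisense gene were told apart.

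Counts were tested with edgeR 4.0.16 in R 4.3.3 (TMM scaling, filterByExpr with a minimum count of 10, quasi-likelihood fit over the 4 groups, Benjamini-Hochberg adjustment over 14607 genes, threshold 0.05). Each SE was back-calculated as the absolute log2 change over the square root of its quasi-likelihood F statistic. It is not a separately fitted standard error. The intervals use this SE with a t quantile, so SE and interval add no evidence to the test itself. Printed CPM are counts over the library total, and correlations use TMM-scaled log2 CPM. DESeq2 1.42.0, limma 3.58.1 (voom with sample quality weights, and log2 of FPKM plus 1 or 0.1), other scalings and filters, a replicate block and leaving out each library were alternatives. Only the edgeR test of succinate in floxed hearts was also run on simulated counts. These gave every gene and group the same relative spread, smaller than that fitted for Nmrk2. The other comparisons and tools were not simulated. The text names all 10 members, list genes that passed in a succinate comparison (up to 4 a list, smallest p first, or the smallest p where none passed) and the 5 genes most correlated with Nmrk2, Naprt and Nadk2 at a mean log2 CPM of at least 1. Members, lists and tests were chosen with earlier results of these data known. Alternatives for the list genes were added after the data were seen. Libraries had 27835235 to 34700996 counts, and a floor of 3 counts was 0.0865 to 0.108 CPM. Replicates differed by more than sampling noise.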

Additional observations from a re-analysis of the deposited data

Results flagged for a closer look

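In 3 of 40 sets of 4 hearts (10 members in 4 groups), 1 heart stood apart from the other 3 by Dixon's test of the gap to its nearest neighbour, and chance flags about 1 in 20 groups. Nadk was 55.6 CPM in the fourth untreated floxed heart, against 46.4 to 46.5 CPM in the other 3. The same heart had 332 CPM of Nnt, against 435 to 454 CPM in the other 3, and the lowest Nmrk2 of its group at 10.5 CPM. Nmrk2 was 6.48 CPM in the first succinate Cre heart, against 5.27 to 5.38 CPM in the other 3, a small difference in a tight group. With TMM-scaled CPM, tried after the data were seen, the Nmrk2 heart no longer stood apart. Nadk (56.5 CPM) and Nnt (337 CPM) of the fourth untreated floxed heart still did, and Nadk at 42.3 CPM in the third succinate Cre heart and Nadk2 at 84.2 CPM in the first succinate floxed heart did so on that scale.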

How the results depend on the processing

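The calls of Nmrk2, Naprt and Nadk2 in floxed hearts held under all 11 other settings and all 8 fits without 1 library, and in the average under all 10 and all 16. The count of genes called in floxed hearts (1917) became 2958 with voom, 1139 on log2(FPKM + 1) and 1145 on log2(FPKM + 0.1), and 1018 to 1989 without 1 library. In Cre hearts (134) it was 485 with DESeq2, 46 from the 2 groups alone, 58 and 41 on the FPKM scales and 22 to 142 without 1 library, and DESeq2 called 1 member. For genotype without succinate (16) it was 90 with DESeq2, 3 from the 2 groups alone, 7 at a mean FPKM of at least 1 and 4 to 23 without 1 library. For genotype with succinate (101) it was 327 with DESeq2, 198 with voom, 45, 61 and 51 on the FPKM scales (plus 1, plus 0.1, mean at least 1) and 44 to 92 without 1 library. The interaction gave 0 genes, but 4 with DESeq2, and 1 and 2 on the FPKM scales. The cause of these shifts was not tested.

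Direction turned only for differences near 0 that passed no test. On the log2 scale, Nadsyn1 in floxed hearts was −0.0122 with voom and −0.0102, −0.0198 and −0.0102 on the FPKM scales, and Nmnat1 in Cre hearts 0.00155 with voom. For genotype without succinate, Naprt was 0.0689 with voom, 0.00169 with the replicate block and 0.0231, 0.0278 and 0.0231 on the FPKM scales, and Nadk2 0.00813 with voom. For genotype with succinate, Nmnat1 was 0.0191, 0.0216 and 0.0191, and Nadk 0.00782, 0.00862 and 0.00782, on the FPKM scales. The Nmrk1 interaction was −0.0774 with voom. Without 1 library, ranges across 0 were −0.12 to 0.14 (Nadsyn1, floxed) and −0.048 to 0.13 (Nampt, Cre). For genotype without succinate they were −0.086 to 0.086 (Naprt), −0.0015 to 0.27 (Nmrk1), −0.15 to 0.10 (Nadk2) and −0.18 to 0.014 (Nampt). For genotype with succinate they were −0.050 to 0.016 (Nmnat1) and −0.088 to 0.025 (Nadk). For the interaction they were −0.088 to 0.18 (Nmrk1), −0.018 to 0.12 (Nadk) and −0.0090 to 0.31 (Nadsyn1).

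With the replicate number as a replicate block, 3 members were called in floxed hearts and 4 in the average, as without it, and 1903 genes in floxed hearts. Same-numbered samples deviated together with r from −0.275 to 0.524. Samples of unlike number were not compared, so this range cannot decide pairing. The numbers were not taken as pairs because the labels do not say that they pair samples. Sucnr1 had 0 to 21 counts, and the untested genes of the tryptophan route had at most 8 in any library. Of the members, Nmrk1 had the fewest, at 57 to 119 counts. The part of depth in the member results was not tested.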
